A study of Mus musculus with 6 samples.

Results

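Lipogenesis, glycerolipid synthesis, lipolysis and lipoprotein export were compared between the livers of L1-Tg and WT mice through 34 genes, out of 37074 genes on the array. The 34 genes were named by function, and each was found through the probes whose RefSeq accession belongs to it. All 34 had a probe, and together they had 50 of the 55681 probes. They comprised 4 regulators, 7 genes of fatty acid synthesis, 9 of elongation and desaturation, 7 of esterification, 5 of lipolysis and 2 of export.

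Cy3-labeled cRNA from liver RNA of male mice was hybridized to 1-color arrays, with 3 arrays of L1-Tg mice and 3 arrays of WT mice. L1-Tg mice were hemizygous for the transgene of the strain B6;D2-Tg(APOE-NPC1L1)20Lqyu/J, in which the APOE promoter drives human NPC1L1, a cholesterol transporter, in hepatocytes. WT mice were littermates without the transgene, and both genotypes came from crosses to C57BL/6J after at least 8 generations of backcrossing. Both were fed a control-fat diet (CFD), a standard chow, and the methods give an age of 6 to 12 weeks for the mice of the study and state for blood and bile that they were taken without fasting. The age of the mice on the arrays, their feeding state and the time of day of sampling were not given in the sources used here. L1-Tg mice are 1 transgenic line, and each array held RNA pooled from 2 or 3 mice, so n counts pools, not mice. The 6 arrays lay on 1 slide scanned once, with WT pools in row 1 and L1-Tg pools in row 2, so slide row and genotype cannot be told apart.

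The liver makes fatty acids from acetyl-CoA when carbohydrate is plentiful, under the transcription factors SREBP1 and ChREBP, and lengthens, desaturates and esterifies them to triglyceride. Triglyceride is then stored in lipid droplets, cleaved again by lipases or loaded onto apolipoprotein B and secreted. Many lipogenic transcripts follow feeding and insulin, and their levels vary over the day.

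Signals below are log2 of the processed intensity minus the 75th percentile of the array, so that 0 marks the level of that percentile, and differences in level between probes are not differences in RNA, since probes bind unequally. Marker genes are called brightest, and levels summed, by signal alone. The 75th percentile lay at an intensity between 296.4 and 377.8, 53.1% to 59.2% of spots on an array lay well above background, and 0 spots were saturated. A gene was read from its brightest probe and tested with limma when 1 genotype or both had that probe well above background on all 3 arrays, which left 22337 genes. Of them, 27 genes with a higher and 2 with a lower signal in L1-Tg mice passed the Benjamini-Hochberg adjusted threshold of 0.05. Albumin (Alb), the brightest hepatocyte marker, lay between 10.52 and 10.81 on the 6 arrays. Of the 8 adipocyte genes, Lep was well above background on no array, Plin1 on 1 WT array, and Adipoq and Retn on 1 array of each genotype. The other 4, Cfd, Fabp4, Cidec and Car3, were well above background on all 6 arrays. Cfd, picked after its values were seen, ran from -4.00 in L1-Tg replicate 3 to 1.35 in WT replicate 1. Transcripts of the pancreas were high on L1-Tg replicate 2, where amylase (Amy2a5) was at 5.79 against 2.94 to 3.22 on the other 5 arrays. Cela2a, a pancreatic elastase named after its values were seen, was also higher on L1-Tg replicates 1 and 3, at -2.19 and 0.25, than on the WT arrays, at -3.92 to -2.97. In whole liver, fewer cells of a type and less RNA per cell cannot be told apart.

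No member passed the adjusted threshold. Of the 33 members tested, limma called 0, beside 0.13% of all genes (0.121% with the higher and 0.00895% with the lower signal in L1-Tg mice), and the smallest adjusted p among them was 0.347. Variances without moderation called 0 of all 22337 genes and so 0 members. At an unadjusted p under 0.05 there were 3 members, or 9.09% beside 8.89% of all genes tested. These were the malic enzyme Me1, with the higher signal in L1-Tg mice (beside 4.51% of all genes), and the elongases Elovl2 and Elovl5, with the lower signal (beside 4.38%). The pools of the genotypes did not overlap for 4 members, or 12.1% beside 15.9% of all genes. Me1 was the 1 with the higher values (beside 7.21% of all genes), and Elovl2, Elovl5 and Agpat3 were the 3 with the lower values (beside 8.71%). The difference index of the methods, the difference of the mean intensities over the sum of their SDs, had a modulus above 0.7 for 5 members, or 15.2% beside 26.5% of all genes tested. These were Me1, which was higher, and Elovl2, Elovl5, Agpat3 and Pnpla2, which were lower (beside 14.8%). Under each of these criteria the share of members lay near or below the share of all genes.

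Of the 33 members, 13 had a higher and 20 a lower mean in L1-Tg mice, beside 57.1% of all genes with a lower mean. The median log2 difference, L1-Tg minus WT, was -0.10 over the members and -0.03 over all genes, and the members ran from -0.55 for Elovl5 to 0.68 for Me1. This division followed the scaling: with the array median in place of the 75th percentile, the median of all genes moved to 0.08, and 17 members were higher and 16 lower. A p that misses the threshold does not show that the genotypes were alike, and the intervals in the plot of differences show which sizes remain possible.

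**Figure D1:**
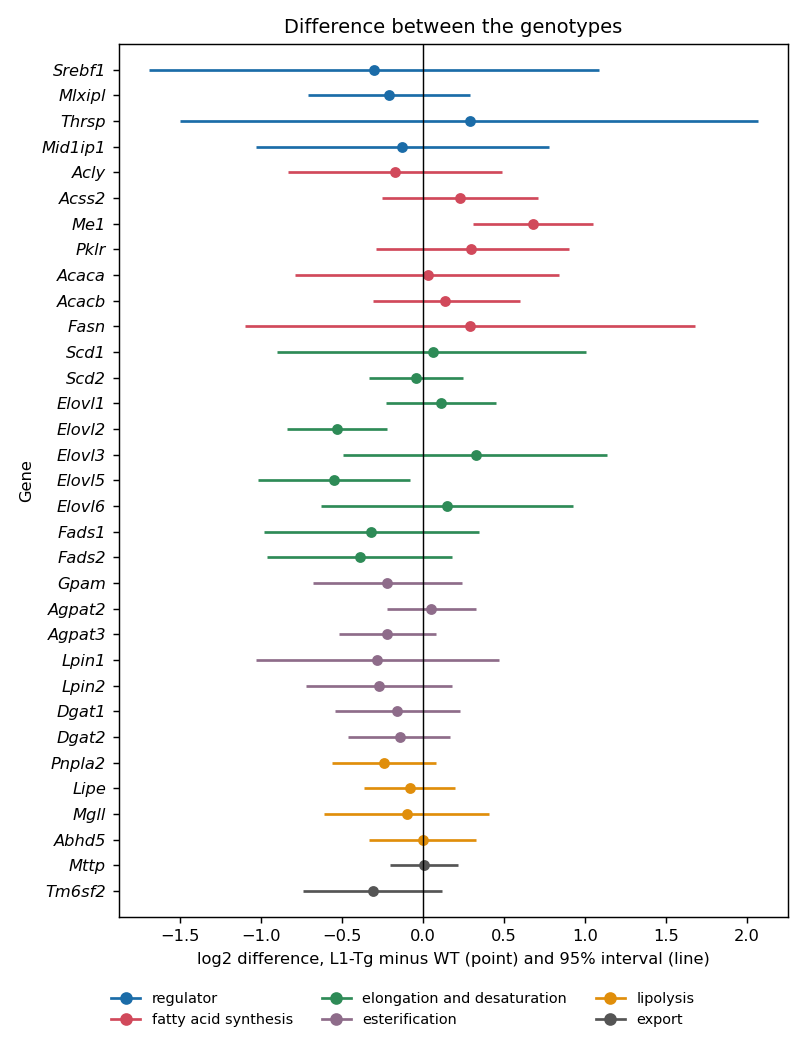
The log2 difference in signal, L1-Tg minus WT (horizontal axis, log2 units), of the 33 tested members (vertical axis), with points for the difference of 2 means of 3 pools and lines for limma's 95% interval, colored by role. The intervals of Me1, Elovl2 and Elovl5 leave out 0, and those of Thrsp, Srebf1 and Fasn are the widest.

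The sequences before the transcription start are given for the 3 members with an unadjusted p under 0.05 and for Thrsp and Fasn, whose pools spread most widely within a genotype together with those of Srebf1. Of the 34 members, 27 had a window in the RefSeq promoter set of build GRCm38.p6, with 39 windows of 250 bases before and 50 after a start. The 4 motifs searched, on both strands, were the E-box CACGTG, which upstream stimulatory factors bind, the sterol regulatory element TCACNCCAC, the CCAAT box CCAAT and the GC box GGGCGG. The stretches below are the 200 bases before the start, 5′ to 3′ on the strand of the gene, with motif matches in capitals, and for Me1 and Elovl2, which have 2 starts each, before the start furthest upstream. They lie at chr9:86695915-86696114 for Me1, chr13:41220404-41220603 for Elovl2, chr9:77917165-77917364 for Elovl5, chr7:97417551-97417750 for Thrsp and chr11:120824548-120824747 for Fasn, of which Elovl5 is on the plus strand and the others on the minus strand.
Me1: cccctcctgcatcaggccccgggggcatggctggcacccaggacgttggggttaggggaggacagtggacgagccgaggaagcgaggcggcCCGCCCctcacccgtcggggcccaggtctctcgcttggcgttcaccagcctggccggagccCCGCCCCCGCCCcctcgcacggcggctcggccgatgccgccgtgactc
Elovl2: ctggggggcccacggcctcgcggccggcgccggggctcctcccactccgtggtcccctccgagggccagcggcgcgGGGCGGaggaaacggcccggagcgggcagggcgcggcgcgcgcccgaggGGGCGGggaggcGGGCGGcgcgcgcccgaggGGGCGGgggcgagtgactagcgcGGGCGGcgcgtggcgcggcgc
Elovl5: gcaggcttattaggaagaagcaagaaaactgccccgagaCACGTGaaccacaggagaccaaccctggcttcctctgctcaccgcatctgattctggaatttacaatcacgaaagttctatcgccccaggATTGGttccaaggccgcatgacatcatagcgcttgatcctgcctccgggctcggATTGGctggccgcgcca
Thrsp: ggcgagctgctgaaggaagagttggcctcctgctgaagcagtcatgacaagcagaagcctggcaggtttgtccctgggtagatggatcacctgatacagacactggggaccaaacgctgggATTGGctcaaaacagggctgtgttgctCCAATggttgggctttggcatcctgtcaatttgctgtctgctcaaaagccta
Fasn: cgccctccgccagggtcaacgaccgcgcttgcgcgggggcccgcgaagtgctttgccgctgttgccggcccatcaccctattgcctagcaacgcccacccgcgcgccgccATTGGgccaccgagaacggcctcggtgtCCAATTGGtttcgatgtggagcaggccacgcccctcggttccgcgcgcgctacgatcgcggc
The stretch of Me1 held 3 GC boxes and that of Elovl2 held 5. Elovl5 had 1 E-box and 2 CCAAT boxes, Thrsp 2 CCAAT boxes, and Fasn 3 CCAAT boxes, of which 2 overlap on opposite strands. Over the full windows, the E-box was in 12.8% of the 39 member windows and 7.15% of all 32851 windows, and the GC box in 56.4% and 35.7%. The CCAAT box was in 38.5% and 37.4%, and the sterol regulatory element in 1 member window, of Mlxipl, or 2.56%, and in 1.24% of all. A match describes the letters alone, and a window without one says only that these letters are not in it.

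The regulators did not differ beyond the spread between pools. Srebf1 encodes SREBP1, the transcription factor of the fatty acid synthesis genes, and its log2 signals, in the order of the replicate numbers, were -0.97, -0.43 and 0.21 for the L1-Tg pools and 1.06, -0.22 and -1.14 for the WT pools. The highest and the lowest of the 6 values were both WT pools. The difference between the means was -0.30 on the log2 scale, with a standard error of 0.58, a 95% interval from -1.69 to 1.09 and an adjusted p of 0.873 in limma. Thrsp, a nuclear protein that follows lipogenesis closely, was at 2.97, 3.22 and 4.21 in L1-Tg pools and at 4.81, 2.76 and 1.98 in WT pools. Here too the WT pools enclosed the L1-Tg pools, and the difference of 0.29 had an interval from -1.50 to 2.07. Mid1ip1, the relative of Thrsp that promotes polymerization of acetyl-CoA carboxylase, was at 2.61, 3.13 and 3.48 against 3.96, 2.93 and 2.71. Mlxipl, which encodes the carbohydrate-responsive factor ChREBP, had a narrower range, from 5.18 to 5.51 in L1-Tg and from 5.20 to 5.96 in WT pools. The log2 differences of Mid1ip1 and Mlxipl were -0.13 and -0.21, and without WT replicate 2 that of Mlxipl was -0.01.

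Among the 7 genes of fatty acid synthesis, Me1 was the 1 whose pools did not overlap, or 14.3% beside 15.9% of all genes. Me1, the cytosolic malic enzyme that supplies NADPH to fatty acid synthase, had log2 signals of 4.35, 4.53 and 4.88 in the L1-Tg pools and of 3.80, 3.94 and 3.97 in the WT pools. All L1-Tg pools lay above all WT pools. The log2 difference was 0.68 (standard error 0.15, 1.6-fold), with a 95% interval from 0.31 to 1.05, and limma gave an unadjusted p of 0.0038 and an adjusted p of 0.347. The stretch before its start, printed above with 3 GC boxes, held no E-box, CCAAT box or sterol regulatory element. Over its full windows, however, Me1 did have a CCAAT box. The other 2 probes of Me1 gave log2 differences of 0.57 and 0.67, and on each of them the genotypes did not overlap either. All 3 probes carry the same accession and were read in the same pools, so they are not further replicates.

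The enzymes that build the chain itself showed no such separation. Fasn, fatty acid synthase, was at -1.81, -1.49 and -0.30 in L1-Tg pools and at -0.44, -1.71 and -2.31 in WT pools, with a log2 difference of 0.29 and an interval from -1.10 to 1.68. Acaca, the acetyl-CoA carboxylase that makes malonyl-CoA for this synthesis, was at 3.03, 3.03 and 3.80 against 3.89, 3.05 and 2.83. For both genes 1 pool of each genotype was high and the other 2 were low. Acly, which cleaves citrate to acetyl-CoA, had a log2 difference of -0.17, and Acss2, which makes acetyl-CoA from acetate, one of 0.23. Acacb, the carboxylase of the outer mitochondrial membrane, differed by 0.14, and Pklr, the liver pyruvate kinase, by 0.30, or 0.07 without L1-Tg replicate 3. The limma adjusted p of these 6 genes lay between 0.697 for Pklr and 0.986 for Acaca.

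The pools of Elovl2 and Elovl5, elongases of polyunsaturated fatty acids, did not overlap either, as was so for 15.9% of all genes. Elovl2, which elongates long polyunsaturated fatty acids on the way to docosahexaenoic acid, had log2 signals of 5.33, 5.71 and 5.48 in the L1-Tg pools and of 6.09, 6.11 and 5.91 in the WT pools. Every L1-Tg pool was below every WT pool, with a log2 difference of -0.53 (standard error 0.13, 95% interval -0.84 to -0.22, limma unadjusted p = 0.00553, adjusted p = 0.395). Elovl5, which acts on the shorter polyunsaturated fatty acids, was at 4.15, 4.67 and 4.64 in L1-Tg pools and at 5.26, 5.08 and 4.75 in WT pools. The pools did not overlap, though the lowest WT pool, replicate 3, lay close to L1-Tg replicates 2 and 3. The log2 difference of Elovl5 was -0.55 (standard error 0.20, 95% interval -1.02 to -0.08, limma unadjusted p = 0.0294, adjusted p = 0.526). Both genes were read from a single probe, and their printed stretches shared no motif, with GC boxes in Elovl2 and an E-box and CCAAT boxes in Elovl5.

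Fads1 and Fads2, the desaturases of the same polyunsaturated pathway, had log2 differences of -0.32 and -0.39, and their pools overlapped. Without WT replicate 1 the differences were -0.08 and -0.20, and without L1-Tg replicate 1 they were -0.09 and -0.22. Fads2 was at 0.74, 1.09 and 1.37 in L1-Tg pools and at 1.84, 1.42 and 1.11 in WT pools, and its interval ran from -0.96 to 0.18. The 4 members that act on polyunsaturated fatty acids, a grouping made after the values were seen, had lower means in L1-Tg mice, of which 2 had an unadjusted p under 0.05 and 0 passed the adjusted threshold of limma. Elovl5 had an unadjusted p under 0.05 in 11 of the 17 alternatives, and Elovl2 in all 17.

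The elongases and desaturases of saturated and monounsaturated fatty acids showed another picture. Scd1, the stearoyl-CoA desaturase that makes oleate, was at 5.31, 5.98 and 6.39 in L1-Tg pools and at 6.24, 5.09 and 6.18 in WT pools, a log2 difference of 0.06 with an interval from -0.90 to 1.01. Elovl6, which lengthens palmitate, differed by 0.15, and Elovl1, which makes very long saturated chains, by 0.11. Elovl3, an elongase of very long saturated and monounsaturated chains, was at 3.52, 3.75 and 3.04 against 2.5, 3.72 and 3.13, with a difference of 0.33 that was 0.02 without WT replicate 1 and 0.63 without WT replicate 2. Scd2, another stearoyl-CoA desaturase, differed by -0.04. The pools of all 5 genes overlapped between the genotypes, and their limma adjusted p lay between 0.756 and 0.973.

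Esterification was followed from the acylation of glycerol 3-phosphate to triglyceride, and 6 of its 7 members had a lower mean in L1-Tg mice, beside 57.1% of all genes. Agpat3, an acyltransferase that takes lysophosphatidic acid to phosphatidic acid, had a log2 signal of 5.28, 5.33 and 5.22 in L1-Tg pools and of 5.41, 5.73 and 5.36 in WT pools. It was the member of this role without overlap, with a log2 difference of -0.22 (standard error 0.12, limma adjusted p = 0.624). Dgat2, the acyltransferase that makes triglyceride from newly made fatty acids, was at 7.77, 7.78 and 7.82 in L1-Tg pools and at 8.19, 7.73 and 7.89 in WT pools. Its L1-Tg pools had a range of 0.04 and lay inside that of the WT pools, 0.45, and the difference was -0.14 with an interval from -0.46 to 0.17, or -0.02 without WT replicate 1. Dgat1, the other enzyme of this step, differed by -0.16.

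For Gpam, the mitochondrial acyltransferase of the first step, the log2 difference was -0.22, and for the phosphatidate phosphatases Lpin1 and Lpin2 it was -0.28 and -0.27. For Lpin1 a single pool set the difference: WT replicate 1 was at 2.98, while the other 2 WT pools, at 1.91 and 2.05, lay among the L1-Tg pools at 2.06, 1.71 and 2.33. Without WT replicate 1 its log2 difference was 0.05. Agpat2, the acyltransferase that is also lost in an inherited lipodystrophy, differed by 0.05 and had the narrowest WT range of the role, from 3.93 to 3.97.

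Of the 5 lipolysis members, 4 were tested and their pools overlapped. Pnpla2, adipose triglyceride lipase, which starts the cleavage of stored triglyceride, was at 4.65, 4.42 and 4.35 in L1-Tg pools and at 4.51, 4.79 and 4.85 in WT pools. The log2 difference of Pnpla2 was -0.24 (standard error 0.13), with an adjusted p of 0.622 in limma, and its difference index of -0.727 was just past the threshold of 0.7. Abhd5, the coactivator of Pnpla2, was at 1.99, 1.66 and 1.76 against 1.98, 1.66 and 1.78, a log2 difference of 0.00 with an interval from -0.33 to 0.33. Lipe, hormone-sensitive lipase, differed by -0.08.

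Mgll, which cleaves the last fatty acid from glycerol, differed by -0.10 at its brightest probe, with an interval from -0.61 to 0.41. Another 2 of its 4 probes gave -0.12 and 0.00, and the last probe, at -1.36, was well above background on WT replicate 1 alone. Pnpla3, a lipid droplet protein related to Pnpla2 that is known for a human fatty liver variant, was not tested. Its brighter probe was at -3.97, -5.71 and -6.01 in L1-Tg pools and at -4.73, -5.36 and -5.00 in WT pools, and it was well above background on L1-Tg replicate 1 alone. The other Pnpla3 probe was well above background on no array, so the levels of this gene are bounds.

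Export was represented by Mttp and Tm6sf2. Mttp, the transfer protein that loads triglyceride onto apolipoprotein B, was the steadiest member: its log2 signal was 4.10, 4.13 and 4.04 in L1-Tg pools and 4.09, 4.14 and 4.01 in WT pools. The log2 difference was 0.01 (standard error 0.09), and the 95% interval from -0.20 to 0.22 was the narrowest of the 33 members. Tm6sf2, a membrane protein needed for the lipidation of secreted particles, was at 3.68, 4.09 and 3.81 against 4.03, 4.49 and 3.98. Its difference of -0.31 had an interval from -0.74 to 0.12 and a limma adjusted p of 0.63.

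**Figure D2:**
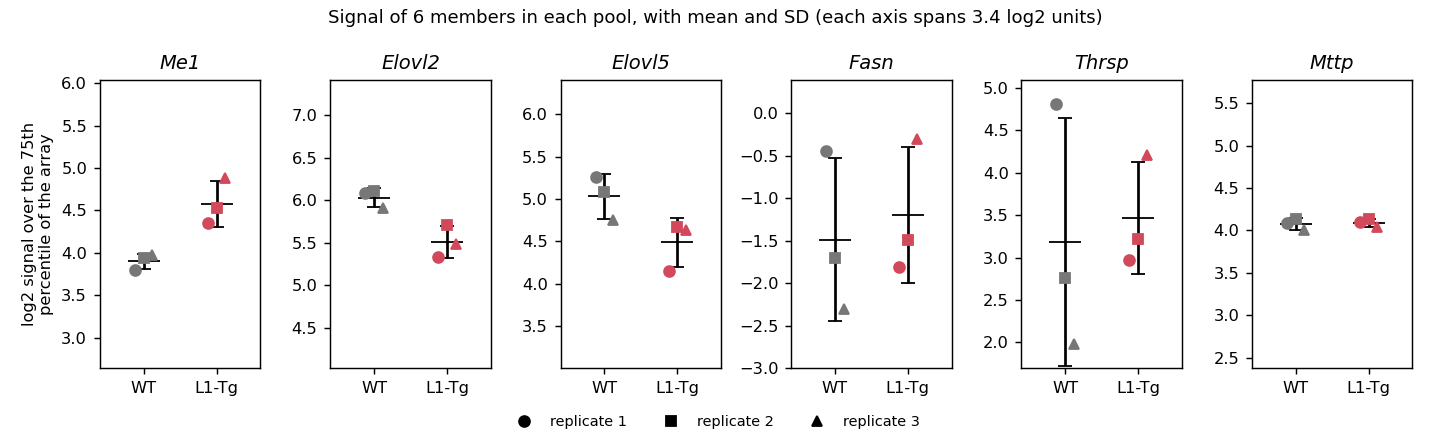
Log2 signal over the 75th percentile of the array (vertical axis, log2 units) of 6 members in the 3 WT and the 3 L1-Tg pools, with horizontal bars for the mean, whiskers for the SD (n = 3 pools) and marker shapes for the replicate numbers, and all axes of equal length. The pools of Me1, Elovl2 and Elovl5 do not overlap between the genotypes, those of Fasn and Thrsp spread widely within each genotype, and those of Mttp lie between 4.01 and 4.14.

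Set side by side, the roles divided in the sign of their median log2 difference. It was 0.23 for fatty acid synthesis, with 6 of 7 genes higher in L1-Tg mice, and -0.22 for esterification, with 6 of 7 lower. The 10 other esterification genes of the pathway list lay on the other side, with a median of 0.15 and 7 of 10 higher. For lipolysis it was -0.09, with all 4 tested genes at or below 0, and for export -0.15 over 2 genes. The regulators had a median of -0.17 and elongation and desaturation one of -0.04. These medians are descriptions of the lists, and the difference between roles was not tested.

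In single pools, measured against the WT mean of each gene, the synthesis genes had medians of -0.18, 0.08 and 0.59 in the L1-Tg pools and of 0.25, 0.01 and -0.30 in the WT pools. The genotypes overlapped, and without L1-Tg replicate 3 the median difference of this role was -0.05. For esterification the pool medians were -0.21, -0.16 and -0.12 against 0.25, -0.20 and -0.04, which also overlapped, and without WT replicate 1 the median difference was -0.06. The lipolysis medians were -0.10, -0.09 and -0.10 against 0.01, 0.13 and -0.02. They did not overlap, but with the array median as the scale the lipolysis difference was 0.02 rather than -0.09. The export medians, at -0.24, -0.01 and -0.20 against -0.06, 0.19 and -0.13, overlapped.

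**Figure D3:**
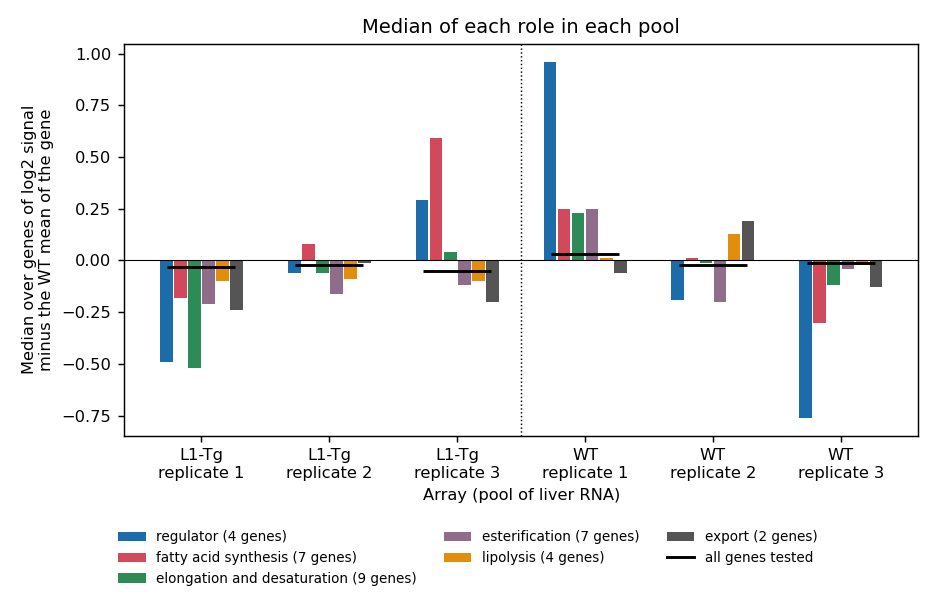
Median over the genes of each role of the log2 signal minus the WT mean of the gene (vertical axis, log2 units) in each of the 6 pools (horizontal axis), with black lines for the median of all genes tested. Regulators and synthesis genes are high in L1-Tg replicate 3 (0.29 and 0.59) and WT replicate 1 (0.96 and 0.25) and low in L1-Tg replicate 1 (-0.49 and -0.18) and WT replicate 3 (-0.76 and -0.30).

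The larger variation of the lipogenic genes lay between pools of the same genotype. Over the 11 regulators and synthesis genes, L1-Tg replicate 1 was the lowest L1-Tg pool in 10, all but Acaca, and L1-Tg replicate 3 the highest in 10, all but Mlxipl. Among the WT pools, replicate 1 was the highest in 9, all but Mlxipl and Me1, and replicate 3 the lowest in 10, all but Me1. Over all genes tested, the same pools took these places in 34.5%, 30.3%, 40.6% and 34.4% of genes.

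The pattern extended to part of the elongases and desaturases, where L1-Tg replicate 1 was lowest in 8 of 9 genes and L1-Tg replicate 3 highest in 6, while WT replicate 1 was highest in 6 and WT replicate 3 lowest in 6. It was not seen among the 13 genes of esterification, lipolysis and export. There the counts were 4, 4, 5 and 4, or 30.8%, 30.8%, 38.5% and 30.8%, near the shares of all genes. These genes share their arrays and RNA, so their number adds no replicates. The printed stretches of Thrsp and Fasn, which followed the pattern in all 4 places, shared the CCAAT box, which 37.4% of all windows hold.

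**Figure D4:**
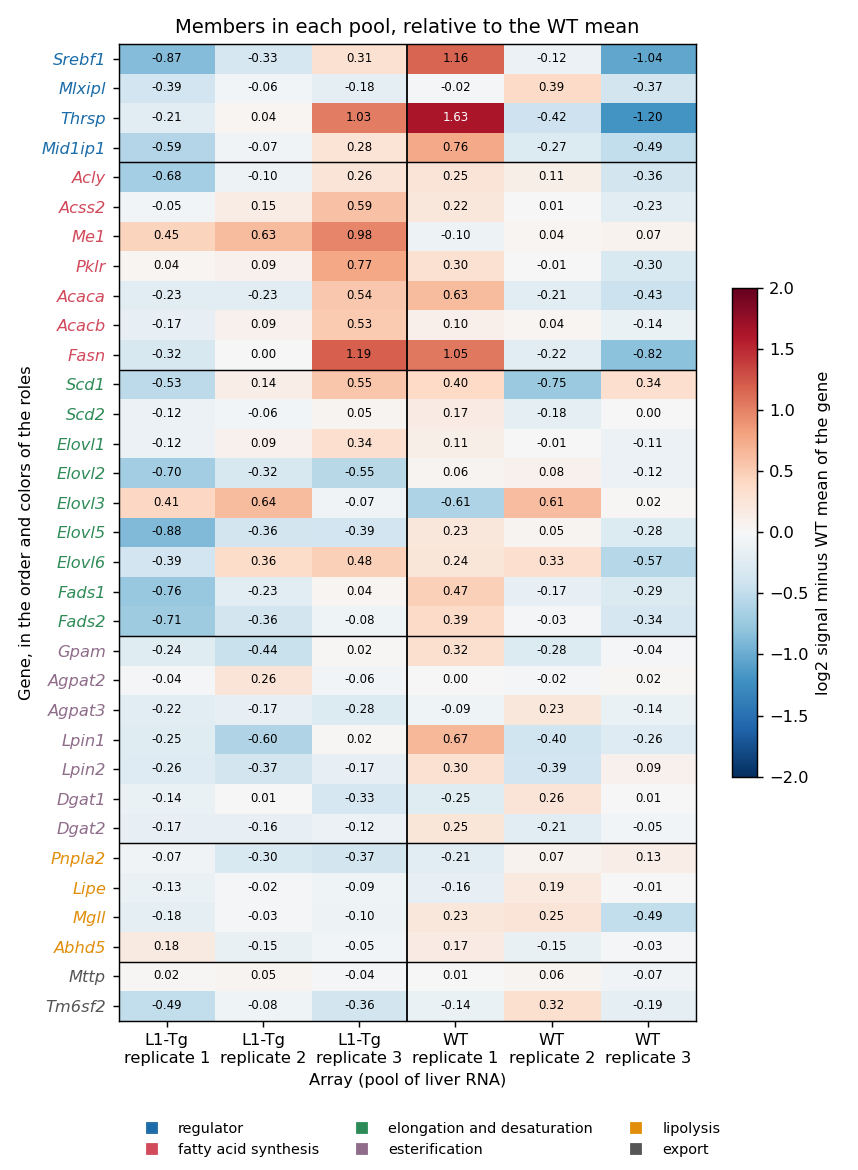
Log2 signal of each of the 33 tested members (rows, in the order of their roles) in each of the 6 pools (columns), given as the difference from the WT mean of the gene in log2 units, with red above and blue below that mean. In the upper rows WT replicate 1 and L1-Tg replicate 3 are mostly red and WT replicate 3 and L1-Tg replicate 1 mostly blue, as in Thrsp, from 1.63 in WT replicate 1 to -1.20 in WT replicate 3.

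The spread within a genotype can be set against that of all genes through the pooled SD, the root mean square of the SDs of both genotypes. Its median was 0.28 over the members and 0.17 over all genes tested. The 90th percentile of all genes, 0.45, was exceeded by 9 of the 33 members, or 27.3%: Thrsp, Srebf1, Fasn, Scd1, Mid1ip1, Acaca, Elovl3, Elovl6 and Lpin1. Thrsp had the largest pooled SD, 1.13, which was above that of 99.2% of genes, and its SD was 1.46 over the WT and 0.66 over the L1-Tg pools. Srebf1 and Fasn, each at 0.88, were above 98.3% of genes. Mttp, at 0.06, was above 4.09%, and Me1 and Elovl2, at 0.20 and 0.16, were above 60.2% and 45.4%.

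Some other lists ran beside this pattern in whole or in part, and some ran against it. The genes of hepatic stellate cells, which make the liver matrix, had medians of -0.18, -0.21 and 0.62 in the L1-Tg pools and of 0.44, -0.28 and -0.29 in the WT pools, and their brightest gene, Col1a2, was at 3.18 and 2.95 in the high pools against 2.22 to 2.28 in the others. Not all of the list did so: Lrat, named after its values were seen, was lowest of its genotype in these pools, at -0.63 and -1.04, and highest in WT replicate 3, at 0.36. Genes of adipocytes were high in WT replicate 1 too, with a median of 0.63, but not in L1-Tg replicate 3, at -0.18, and Cfd, picked after its values were seen, was at 1.35 in WT replicate 1 and at -4.00 in L1-Tg replicate 3. The cholangiocyte list had medians of -0.35, -0.17 and 0.26 in the L1-Tg pools and of 0.47, -0.24 and -0.18 in the WT pools. The endothelial list ran the other way, with medians of 0.17, 0.08 and 0.02 against -0.13, -0.08 and 0.17. Medians of the Kupffer cell and macrophage list were 0.43, 0.25 and 0.27 against -0.40, -0.12 and 0.53. Genes outside the cell type lists, named after their values were seen, also varied between these pools. Insig1, a controller of lipogenesis, was at 0.35, 0.83 and 1.67 against 1.80, 1.18 and 0.60. Insig2, of the same list, ran the other way, at 4.31, 4.49 and 3.44 against 3.26, 4.41 and 4.46. The medians of that list were -0.13, -0.05 and -0.01 against 0.12, -0.06 and -0.05. The clock gene Arntl was lowest in the high pools, at -1.49, -0.74 and -2.35 against -3.32, -2.56 and -1.07. The part of cell makeup in the spread of the lipogenic genes was not tested.

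**Figure D5:**
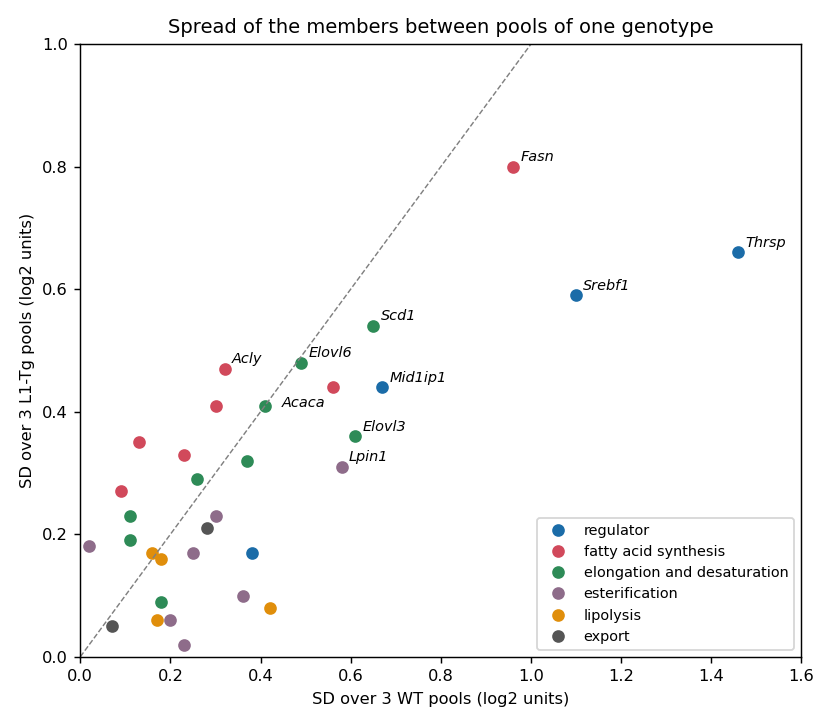
SD of the log2 signal over the 3 L1-Tg pools (vertical axis, log2 units) against the SD over the 3 WT pools (horizontal axis, log2 units) for the 33 tested members, colored by role, with a dashed line of equal SDs and names at an SD above 0.45. Thrsp (1.46 in WT, 0.66 in L1-Tg), Srebf1 (1.1, 0.59) and Fasn (0.96, 0.80) have the largest SDs in WT pools.

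Beyond the members, 66 other genes of the same pathways were read, of which Me3, Olah and Elovl4 were below background and 63 were tested. By limma 0 of the 63 passed the adjusted threshold. Over the 61 whose probe exceeded background on each of the 6 arrays, 6, or 9.84% beside 8.89% of all genes, had an unadjusted p under 0.05, of which 5 were higher and 1 was lower in L1-Tg mice. The pools did not overlap for 9 of these 61, or 14.8% beside 15.9% of all genes. The median log2 difference of the 63 was 0.00, with 31 genes higher and 32 lower. Elovl7 and Scd4, tested through the L1-Tg arrays alone, are in the 63 and among the 31, but not in the 61. Both shares of this list lay near those of all genes, and the genes below are named by their unadjusted p alone.

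The smallest p of these belonged to Mogat2, a monoacylglycerol acyltransferase that feeds diacylglycerol synthesis. It was at -1.04, -1.34 and -0.98 in L1-Tg pools and at -1.98, -1.94 and -2.30 in WT pools, without overlap. The log2 difference was 0.95 (standard error 0.15, 1.94-fold, 95% interval 0.59 to 1.31), with a limma adjusted p of 0.179. It was the one gene of the 10 in the esterification list with an unadjusted p under 0.05, and 7 of the 10 had a higher mean.

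In the list for supply and elongation, 12 of 19 genes had a higher mean. Of the 17 well above background on all arrays, 2 had an unadjusted p under 0.05. Me2, the mitochondrial malic enzyme, differed by 0.40 and Hacd2, the dehydratase of the elongation cycle, by 0.31. Elovl7, another elongase, was well above background on all 3 L1-Tg arrays, at -3.67 to -2.94, and on 1 of 3 WT arrays, so its WT level is a bound. Scd4 was well above background on all 3 L1-Tg and on 2 of 3 WT arrays. Both are among the 12 genes with a higher mean, but not among the 17. In the lipolysis list the genes with an unadjusted p under 0.05 were Pnpla8, a phospholipase, at 0.36, Abhd6, a monoacylglycerol hydrolase, at 0.43, and Lipc, hepatic lipase, at -0.31.

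No gene of the other lists had an unadjusted p under 0.05. Of the 15 controllers of lipogenesis 11 had a lower mean, and the smallest p was that of Usf2, an upstream stimulatory factor, with a log2 difference of -0.49 and pools from 6.11 to 6.67 in L1-Tg and from 6.55 to 7.49 in WT mice. Of the 8 other export genes 5 had a lower mean, and Apob, the protein of the secreted particle, differed by -0.29 with an interval from -0.60 to 0.03.

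Since lipogenic transcripts follow meals and the clock, lists for both were read beside them. Of 12 genes of feeding and fasting, 9 had a lower mean in L1-Tg mice, beside 57.1% of all genes, and an unadjusted p under 0.05 was found for 2, or 16.7% beside 8.89% of all genes: Pck1, of gluconeogenesis, at -0.46 and Cpt1a, which admits fatty acids to mitochondria, at -0.22. Of 12 tested clock genes, 4, or 33.3%, had an unadjusted p under 0.05, beside 8.89% of all genes, and all 4 were lower in L1-Tg mice, beside 4.38% of all genes. Per1 was at 2.76, 2.62 and 2.93 in L1-Tg pools and at 3.36, 3.31 and 3.60 in WT pools, a log2 difference of -0.65 (standard error 0.13, limma adjusted p = 0.29). Ciart, Cry2 and Tef differed by -0.65, -0.31 and -0.29, each without overlap. By limma 0 genes of either list passed the adjusted threshold, and the part of meals or time of day in the member values was not tested.

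Markers of other cells were read in the same way. All 7 tested genes of Kupffer cells and macrophages had a higher mean in L1-Tg mice, with summed levels from 148 to 173 in L1-Tg and from 93.4 to 173 in WT pools, and Cd5l, the brightest, differed by 0.63. By limma 0 of the 7 passed at either an adjusted or an unadjusted p of 0.05. Of 8 adipocyte genes, 4 were tested, with 2 higher and 2 lower, and Car3, the brightest, which hepatocytes also express, differed by -0.35. The summed level of the pancreas genes was between 11.1 and 91.5 in L1-Tg and between 10.1 and 11.5 in WT pools, the highest being L1-Tg replicate 2. Without that pool, which leaves the Cela2a signal of the other L1-Tg pools in place, limma called 0 members, beside 15 of 22747 genes. Of 33 members, 3 had an unadjusted p under 0.05, beside 1816 of the 22747 genes, and these were again Me1, Elovl2 and Elovl5. In the same setting 12 members were higher and 21 lower.

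Other marker lists were mixed. The means were higher in L1-Tg mice for 2 of 8 hepatocyte genes, 5 of 7 lymphocyte genes, 2 of 4 cholangiocyte genes, 4 of 6 stellate cell genes and 5 of 6 endothelial genes. The brightest genes of these last 4 lists differed by -0.06 for Nkg7, 0.52 for Spp1, 0.06 for Col1a2 and 0.00 for Kdr. The median of the lymphocyte list was 0.36, the value of Cd79a. Of its 5 higher genes, Cd3g, Cd8a and Cd79a were tested through the L1-Tg arrays alone. Cd3g and Cd79a were well above background on 2 WT arrays and Cd8a on 0, so the count and the median rest partly on bounds. The lymphocyte gene Cd3e and the hepatocyte gene Apoa1, named after their values were seen, had an unadjusted p under 0.05. Their differences were -0.30 and -0.49. Each was the 1 such gene of its list, or 14.3% and 12.5%, beside 8.89% of all genes. All 3 tested erythroid genes had a higher mean, and the brightest, Hba-a1, differed by 0.28, with L1-Tg replicate 2 at 7.45 and the other 5 pools between 6.31 and 6.58. What these shifts contribute to the member values was not tested.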

How the data were processed

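Liver RNA of male mice on the CFD was measured on 3 arrays per genotype, each holding RNA from 2 or 3 mice, and samples were grouped by their labels. The authors processed the scans with Agilent Feature Extraction 10.10.1.1 (design build mm9), and the deposited processed signal is a linear intensity, with background subtracted within the array and no scaling between arrays. The deposited marks give 0 or 1 for spots well above background, saturated or non-uniform. The authors also deposited a matrix of intensities, in which each array is its processed signal multiplied by a constant, whose meaning is not given in the sources used here.

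Control spots were left out, non-uniform spots (1 to 22 per array) were set missing, and spots of 1 probe were averaged. A symbol was found for 27235 of the 28685 probes named by a RefSeq accession. The log2 of each signal minus the 75th percentile of the array was fitted with limma 3.58.1 in R 4.3.3 (lmFit, eBayes, two-sided, Benjamini-Hochberg over 22337 genes), which was tested on simulated data first. A gene was read from its brightest probe, filtered as described in the report. The difference index was computed on linear scaled signals. With 3 pools a genotype, the smallest p of an exact permutation test is 0.1, and precision is limited by the number of arrays.

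The members, the lists and the tests were chosen with earlier results of these data known. All members were to be named, and of each pathway, feeding and clock list the genes with an unadjusted p under 0.05 or, failing that, those with the smallest p, and of each marker list the brightest gene. Promoters came from RefSeq (GRCm38.p6). The alternatives were other scalings, normexp (offset 50) on median signals, other probe filters, the mean of the probes of a gene, other variance models, a replicate block and each pool left out. The replicate numbers are not said to pair pools. Deviations of pools with the same number correlated at -0.16, 0.11 and 0.02 across genes, and those of pools with different numbers at -0.17 to 0.17. These values cannot show whether pools were paired.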

Additional observations from a re-analysis of the deposited data

How the results depend on the processing

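The count of members called by limma was 0 under all 17 alternatives, with the smallest adjusted p between 0.249 and 0.766, and Me1 (0.53 to 0.80), Elovl2 (-0.63 to -0.42) and Elovl5 (-0.69 to -0.38) kept their sign in each. Genes called on the whole array fell from 29 to 10 without a filter on dim probes, 11 with the replicate block and 0 without moderated variances, where 1842 had an unadjusted p under 0.05. The replicate block left 0 members called and a member median of -0.10, with Tm6sf2 in place of Elovl5 at an unadjusted p under 0.05. Elovl5 lost that p in 6 of the 17 alternatives: the block, the array median, variances without moderation, and without L1-Tg replicate 1, WT replicate 1 or WT replicate 2. By the difference index 3 of 33 members were past the threshold on the deposited matrix instead of 5, beside 25.3% of all genes instead of 26.5%. With 1 pool left out, 6 to 9 of 33 members passed, beside 28.3% to 38.6% of all genes. The count of 9 was without WT replicate 1, where 34% of all genes passed. With the array median as the scale, the lipolysis median was 0.02. With 1 pool left out, medians ran from -0.17 to 0.02 for the members, -0.38 to 0.27 for regulators, -0.05 to 0.37 for synthesis, -0.32 (without WT replicate 2) to 0.02 for elongation and desaturation, -0.25 to -0.06 for esterification, -0.13 to -0.03 for lipolysis and -0.22 to -0.05 for export. Members were 19 higher and 14 lower without WT replicate 1, 7 and 26 without L1-Tg replicate 3, and 8 and 25 without WT replicate 3. Signs turned with 1 pool left out for Srebf1 (-0.82 to 0.28), Thrsp (-0.32 to 1.1), Mid1ip1 (-0.37 to 0.25), Acly (-0.39 to 0.08), Acaca (-0.23 to 0.35), Acacb (-0.05 to 0.30), Fasn (-0.16 to 0.81), Scd1 (-0.32 to 0.35), Scd2 (-0.13 to 0.05), Elovl1 (-0.01 to 0.22), Elovl6 (-0.13 to 0.42), Agpat2 (-0.05 to 0.11), Lpin1 (-0.48 to 0.05), Lipe (-0.17 to 0.01), Mgll (-0.34 to 0.03), Abhd5 (-0.09 to 0.09) and Mttp (-0.03 to 0.04). With 1 pool left out and no turn of sign, differences ran from -0.39 to -0.01 for Mlxipl, 0.07 to 0.46 for Pklr, 0.05 to 0.37 for Acss2, 0.02 to 0.63 for Elovl3, -0.49 to -0.08 for Fads1, -0.56 to -0.20 for Fads2, -0.36 to -0.06 for Gpam, -0.47 to -0.12 for Lpin2, -0.28 to -0.03 for Dgat1, -0.25 to -0.02 for Dgat2 and -0.42 to -0.15 for Tm6sf2. Otherwise signs turned for values near 0: with the array median for Scd2 (0.07), Lipe (0.03), Mgll (0.01) and Abhd5 (0.11), without scaling for Scd2 (0.02) and Abhd5 (0.06), on the deposited matrix for Scd2 (0.01) and Abhd5 (0.05), with quantile normalization for Abhd5 (0.00), with the mean of the probes for Abhd5 (0.06) and with normexp for Mttp (0.00). The cause was not tested. Signal over background limits what can be said of Pnpla3.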
